A study of Mus musculus with 12 samples.

Results

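Endothelial cells line every vessel of the kidney, from the arteries to the glomerular tufts and the capillaries around the tubules, and they depend on vascular endothelial growth factor (VEGF) made largely by neighbouring epithelium. The genes described here are 10 such genes, chosen by name with earlier results of these data known. They comprise the ligand Vegfa, the VEGF receptors Kdr and Flt1, the angiopoietin receptor Tek with its relative Tie1, the TGF-beta superfamily coreceptor Eng, and 4 further genes of the endothelial surface and membrane, Pecam1, Plvap, Emcn and Ehd3. Each of the 10 symbols was held by 1 of the 35275 genes in the deposited table. All 10 were read in every mouse, with a lowest count of 654, for Ehd3, and all passed the filter on low counts in each comparison.

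Kidney poly(A) RNA was sequenced from 12 C57BL/6J mice at 6 months of age, with 4 mice in each of 3 groups and 2 females and 2 males per group. The WT mice carried no engineered allele. The RC/RC mice (Pkd1RC/RC in the sample labels) are homozygous for a hypomorphic Pkd1 allele present in every cell, a model of autosomal dominant polycystic kidney disease. The RC/RC:Casp1KO mice (Pkd1RC/RC-Casp1KO in the labels) carry the same Pkd1 alleles and in addition a homozygous germline deletion, Del3, in Casp1, the protease of the inflammasome. No cell type was targeted, and the study has no group with the Casp1 deletion on a WT Pkd1 background. Slc34a1 of the proximal tubule and Umod of the thick ascending limb, both known from kidney tubules, were abundant in every group. Libraries held 18019819 to 24869454 counted reads. The count columns name a group and an animal but not a sex. Mice are numbered here 1 to 4 within each group in the order of these columns, and no value is given by sex.

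VEGF-A is sensed by endothelial cells mainly through the tyrosine kinase receptor VEGFR2, the product of Kdr, while the product of Flt1 binds the same ligand tightly and limits what reaches VEGFR2. In the kidney, podocytes and tubular cells are known sources of VEGF-A, and hypoxia-inducible factors are known activators of Vegfa. Angiopoietins act on the Tek product, Tie2, with the orphan receptor Tie1 modifying that signal, and endoglin, the product of Eng, presents bone morphogenetic proteins to the receptor ALK1 on endothelium.

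In the coordinates of the deposited table, which match GRCm38.p6, Vegfa (ENSMUSG00000023951) lies at chr17:46016993-46032377 on the minus strand. Kdr (ENSMUSG00000062960) lies at chr5:75932827-75978458 and Flt1 (ENSMUSG00000029648) at chr5:147561604-147726011, both on the minus strand. Eng (ENSMUSG00000026814) lies at chr2:32646595-32682669 on the plus strand and Plvap (ENSMUSG00000034845) at chr8:71497754-71511769 on the minus strand. RefSeq promoter windows of the same build were matched for 8 of the 10 genes, that is all but Pecam1 and Plvap. ETS factors are known regulators of endothelial genes, and both their core sequences AGGAAG and CCGGAA were searched on both strands in windows of 300 bases, which run from 250 bases before to 50 bases after the start. AGGAAG occurred in 5 of the 8 genes and CCGGAA in 1, while 35.4% and 14.9% of all 32851 promoter windows held them. The 250 bases upstream of the start are shown for Eng, which among the 10 genes had the largest spread relative to its mean in RC/RC mice, and for the VEGF receptors Flt1 and Kdr, which were called in no comparison. Capitals mark matches to either core on either strand, and a match is a run of letters and not evidence of binding.
Eng, chr2:32646345-32646594, plus strand: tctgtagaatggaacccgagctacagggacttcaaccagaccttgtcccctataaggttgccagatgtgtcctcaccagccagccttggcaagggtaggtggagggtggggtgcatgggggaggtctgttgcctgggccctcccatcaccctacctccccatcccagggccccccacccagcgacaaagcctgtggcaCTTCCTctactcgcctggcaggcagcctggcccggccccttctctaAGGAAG
Flt1, chr5:147726012-147726261, minus strand: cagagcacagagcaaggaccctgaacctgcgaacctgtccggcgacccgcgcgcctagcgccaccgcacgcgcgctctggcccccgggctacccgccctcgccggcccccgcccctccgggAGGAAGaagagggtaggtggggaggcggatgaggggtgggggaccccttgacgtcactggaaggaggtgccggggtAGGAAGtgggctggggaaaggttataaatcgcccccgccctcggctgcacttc
Kdr, chr5:75978456-75978705, minus strand: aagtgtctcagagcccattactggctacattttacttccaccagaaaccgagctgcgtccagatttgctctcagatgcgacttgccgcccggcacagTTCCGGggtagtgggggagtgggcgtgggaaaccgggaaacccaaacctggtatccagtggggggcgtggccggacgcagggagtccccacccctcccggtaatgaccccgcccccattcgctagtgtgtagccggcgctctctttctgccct
The Eng and Flt1 stretches each held 2 AGGAAG matches and the Kdr stretch held 1 CCGGAA match.

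Casp1 transcripts were read first as a check of the group labels. Casp1 stood at 2.05, 1.29, 1.31 and 1.41 CPM (counts scaled to library size, corrected for library composition by the TMM method) in WT mice 1 to 4, at 3.33, 3.86, 4.24 and 2.62 in the RC/RC mice and at 0.382, 0.667, 0.665 and 1.06 in the RC/RC:Casp1KO mice. No value in one group overlapped another. The gene was higher in RC/RC than in WT mice by 1.21 on the log2 scale (SE 0.25, adjusted p = 0.0142) and lower in RC/RC:Casp1KO than in RC/RC mice (log2 fold change -2.35, SE 0.32, adjusted p = 0.00514). The difference of RC/RC:Casp1KO from WT mice, -1.12 (SE 0.35), was not called by edgeR (adjusted p = 0.128) and was called by DESeq2 (adjusted p = 0.0481). Unless another tool is named, adjusted p-values here and later are those of the quasi-likelihood test in edgeR, adjusted after Benjamini and Hochberg over all genes tested, and a gene was called where the value was under 0.05. Pkd1, whose RC allele is a missense change that leaves the transcript in place, was not called in any comparison (log2 fold changes of 0.06, 0.37 and 0.44).

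Per unit of transcript length, Plvap and Vegfa were the most abundant of the 10 genes in all 3 groups. In WT kidneys the mean FPKM (reads scaled to transcript length and to library size) was 103 ± 25.7 for Plvap and 72.0 ± 18.9 for Vegfa (SD, n = 4). Eng followed at 28.9, Pecam1 at 24.6, Emcn at 18.4, Kdr at 16.3, Flt1 at 14.7, Ehd3 at 13.9, Tie1 at 13.2 and Tek at 11.5. Of the neighbours in that order, the ranges over mice were separate for Vegfa and Eng alone. In RC/RC kidneys the gap lay elsewhere. Plvap, at 163 ± 54.4 FPKM, was separate from Vegfa at 44.5 ± 6.54, and Vegfa overlapped Eng at 43.3 ± 16.4. In RC/RC:Casp1KO kidneys Plvap at 97.1 ± 12.3 and Vegfa at 89.4 ± 3.12 overlapped each other and were separate from Eng at 28.3 ± 4.30. Ehd3 was the lowest of the 10 in both groups with the Pkd1 alleles.

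Vegfa, the ligand, differed most between the groups. In WT mice 1 to 4 it stood at 207, 201, 296 and 342 CPM. Among RC/RC mice the values were 163, 148, 127 and 167 CPM, and among RC/RC:Casp1KO mice they were 290.1, 298, 321 and 278 CPM. Every RC/RC mouse lay below every mouse of both other groups, and the RC/RC:Casp1KO mice fell within the WT range. Vegfa was lower in RC/RC than in WT kidneys, at 0.577 of the WT level (log2 fold change -0.79, SE 0.20, adjusted p = 0.0276). It was 1.95-fold higher in RC/RC:Casp1KO than in RC/RC kidneys (log2 fold change 0.96, SE 0.13, adjusted p = 0.00410). Between RC/RC:Casp1KO and WT kidneys the log2 difference was 0.19 (95% interval -0.21 to 0.58, adjusted p = 0.552). The first 2 of these comparisons use the same RC/RC mice. The call against RC/RC held in 8 of 8 fits that left out 1 mouse, and the call of RC/RC against WT in 4 of 8, being lost without RC/RC mouse 2 or 3 or WT mouse 3 or 4 (adjusted p from 0.0575 to 0.0837).

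**Figure D1:**
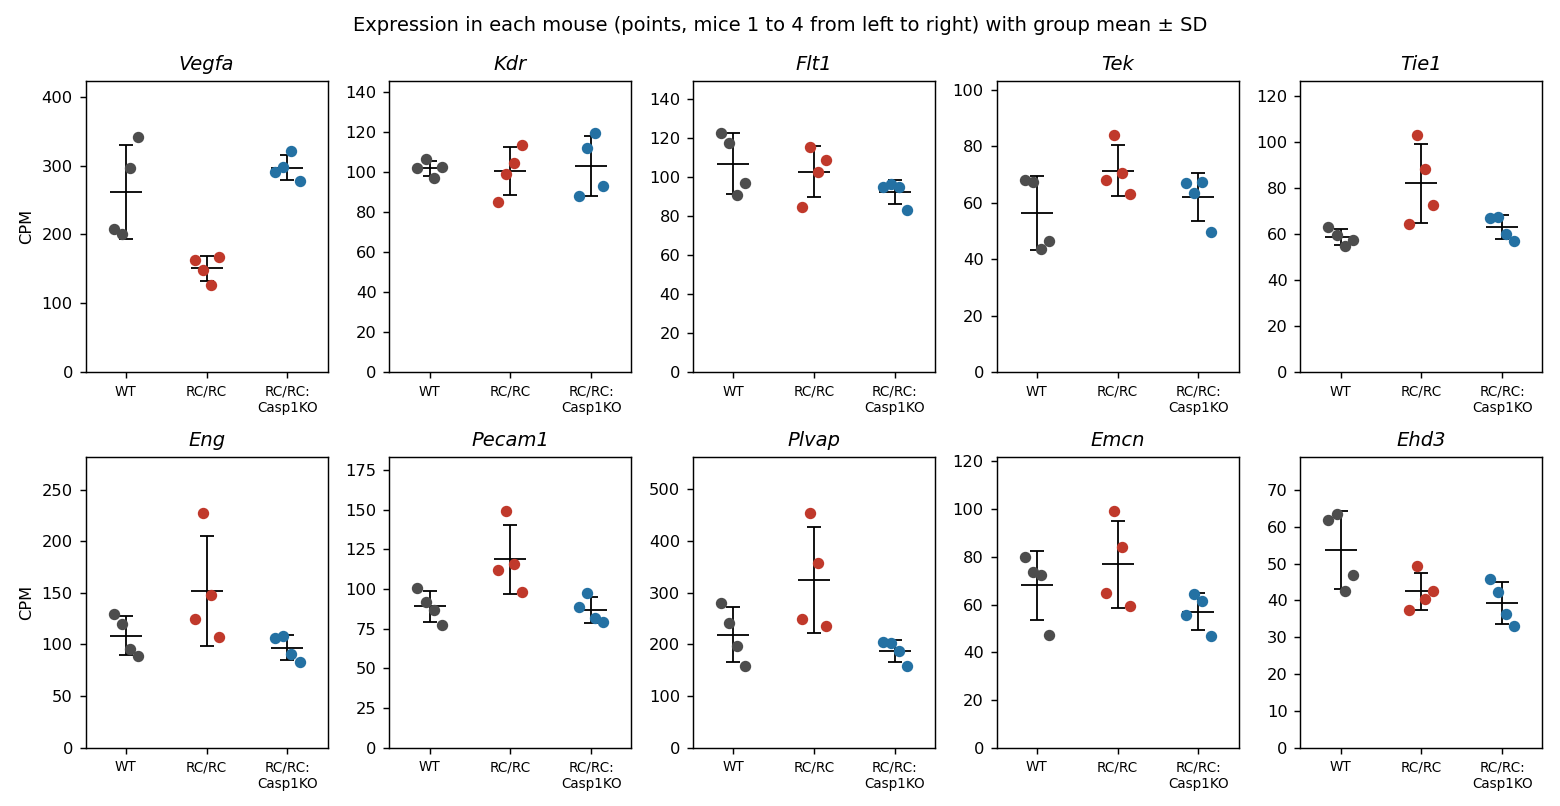
Expression of the 10 genes in CPM (vertical axes, each starting at 0) in each of the 12 mice, as points by group, with the group mean and SD as bars. The 4 RC/RC mice lie between 127 and 167 CPM for Vegfa, below all other mice, whereas for Kdr the 3 groups lie on top of one another.

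Kdr, the main signalling receptor for VEGF-A, was flat. It stood at 102, 106, 96.9 and 102 CPM in the WT mice, at 84.9, 99.1, 104.5 and 113 in the RC/RC mice and at 88.0, 112, 119 and 93.0 in the RC/RC:Casp1KO mice. The groups overlapped throughout and their means were 102, 100.4 and 103 CPM. The log2 difference was -0.02 for RC/RC against WT (95% interval -0.27 to 0.23) and 0.03 for RC/RC:Casp1KO against RC/RC (95% interval -0.30 to 0.35).

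Flt1, the receptor that limits VEGF-A, also overlapped between all groups. Its CPM was 122, 118, 90.5 and 97.1 in the WT mice, 84.6, 115, 103 and 109 in the RC/RC mice and 94.7, 96.2, 95.1 and 83.0 in the RC/RC:Casp1KO mice. The log2 difference was -0.06 for RC/RC against WT (95% interval -0.37 to 0.26) and -0.17 for RC/RC:Casp1KO against RC/RC (95% interval -0.45 to 0.11). With a trend on transcript length removed from each library, the second difference was -0.38 (adjusted p = 0.144). The ratio of Vegfa to Kdr in FPKM within a mouse was 3.25 to 5.72 in WT, 2.08 to 3.30 in RC/RC and 4.57 to 5.66 in RC/RC:Casp1KO mice. The ratio to Flt1 had a mean of 5.09 ± 1.97, 2.99 ± 0.634 and 6.44 ± 0.327 (SD, n = 4) in the same order. For both ratios all RC/RC mice lay below all RC/RC:Casp1KO mice, and WT mice 1 and 2 lay within the RC/RC range or just above it.

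**Figure D2:**
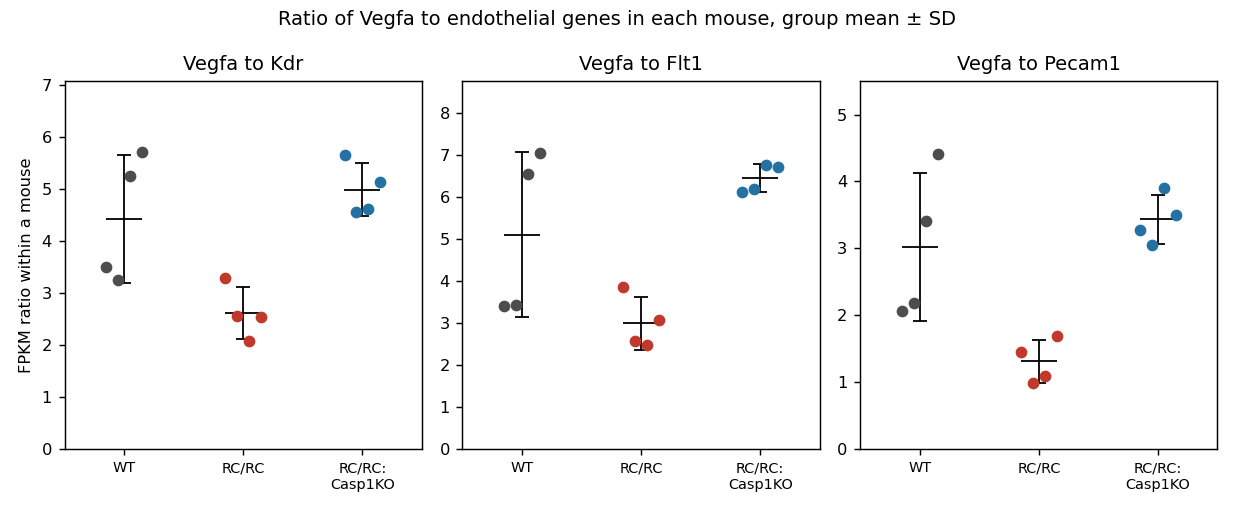
FPKM of Vegfa divided by that of Kdr, Flt1 or Pecam1 in the same mouse (vertical axes, no unit, starting at 0), with 1 point per mouse and the group mean and SD as bars. The RC/RC ratios to Kdr, 2.08 to 3.30, lie below the RC/RC:Casp1KO ratios, 4.57 to 5.66.

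Tek and Tie1, the receptors of the angiopoietin axis, were measured at similar levels. Tie1 stood at 63.0, 59.7, 54.8 and 57.2 CPM in the WT mice, at 64.2, 103, 88.2 and 72.6 in the RC/RC mice and at 67.1, 67.4, 60.1 and 56.7 in the RC/RC:Casp1KO mice. All RC/RC mice lay above all WT mice, the nearest pair being 64.2 and 63.0. The log2 difference of 0.48 (SE 0.15) missed the threshold in edgeR's quasi-likelihood test (adjusted p = 0.0607), whereas DESeq2 called it (adjusted p = 0.0429). EdgeR called it with library size alone (0.58, adjusted p = 0.0342), with all 12 mice in one fit (0.48, 0.0280) and without RC/RC mouse 1 (0.56, 0.0268). Without RC/RC mouse 2 it was 0.33 and not called. The Tie1 difference of RC/RC:Casp1KO from RC/RC mice was -0.39 (adjusted p = 0.116, edgeR). Tek stood at 67.9, 67.3, 43.5 and 46.4 CPM in the WT mice, at 68.2, 83.9, 70.4 and 63.0 in the RC/RC mice and at 67.1, 63.6, 67.4 and 49.4 in the RC/RC:Casp1KO mice. Its groups overlapped, with log2 differences of 0.34 (adjusted p = 0.210) and -0.21 (adjusted p = 0.299) in the quasi-likelihood tests of RC/RC against WT and RC/RC:Casp1KO against RC/RC.

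Eng, the endoglin gene, varied widely among the RC/RC mice. Its CPM was 129, 120, 95.8 and 89.1 in the WT mice, 125, 228, 148 and 107 in the RC/RC mice and 107, 108, 90.5 and 83.3 in the RC/RC:Casp1KO mice. RC/RC mouse 2 stood far above the rest, and the lowest RC/RC mouse lay within both other ranges. The log2 difference was 0.48 (SE 0.23, adjusted p = 0.205) for RC/RC against WT and -0.65 (SE 0.22, adjusted p = 0.0836) for RC/RC:Casp1KO against RC/RC in edgeR's quasi-likelihood test. The second was called by DESeq2 (adjusted p = 0.0390). Without RC/RC mouse 2 the differences were 0.20 and -0.37.

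Plvap, which encodes the protein of the diaphragms of fenestrated capillaries, was the endothelial gene that passed the test. It stood at 279.7, 242, 196 and 158 CPM in the WT mice. It stood at 248, 454, 357 and 237 CPM in the RC/RC mice and at 204, 202, 187 and 158 CPM in the RC/RC:Casp1KO mice. All RC/RC:Casp1KO mice lay below all RC/RC mice, while WT and RC/RC mice overlapped. Plvap was lower in RC/RC:Casp1KO than in RC/RC kidneys, at 0.576 of the level (log2 fold change -0.80, SE 0.22, adjusted p = 0.0446). The difference of RC/RC from WT was 0.57 (SE 0.25, adjusted p = 0.165). The call was lost in 6 of 8 fits that left out 1 mouse, those without RC/RC mouse 2 or 3 or any 1 of the RC/RC:Casp1KO mice (adjusted p from 0.0876 to 0.115). Without RC/RC mouse 2 the log2 fold change was -0.56.

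Pecam1, the junctional adhesion molecule CD31 of all endothelium, had CPM of 100.3, 91.8, 86.7 and 77.2 in the WT mice, 112, 149, 116 and 98.3 in the RC/RC mice and 88.4, 97.3, 82.0 and 79.4 in the RC/RC:Casp1KO mice. The lowest RC/RC mouse lay just above the highest RC/RC:Casp1KO mouse and just below the highest WT mouse. The log2 difference was 0.42 (SE 0.15, adjusted p = 0.0958) for RC/RC against WT. It was -0.46 (SE 0.14, adjusted p = 0.0602) for RC/RC:Casp1KO against RC/RC, which DESeq2 called (adjusted p = 0.0289) and edgeR's quasi-likelihood test did not. These differences were 0.26 and -0.31 without RC/RC mouse 2.

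Emcn, a sialomucin of capillaries and veins, stood at 79.8, 73.5, 72.3 and 47.1 CPM in the WT mice, at 65.0, 99.0, 84.1 and 59.5 in the RC/RC mice and at 55.6, 64.3, 61.4 and 46.9 in the RC/RC:Casp1KO mice. Its groups overlapped in every comparison (log2 differences of 0.17 and -0.44, adjusted p = 0.600 and 0.123). The first was 0.01 without RC/RC mouse 2 and 0.03 without WT mouse 4, and the second was -0.27 without RC/RC mouse 2. Ehd3, an endocytic ATPase known as a marker of glomerular endothelium in the kidney, stood at 61.9, 63.5, 42.7 and 46.8 CPM in the WT mice, at 37.4, 49.4, 40.4 and 42.4 in the RC/RC mice and at 45.8, 42.2, 36.3 and 33.1 in the RC/RC:Casp1KO mice. WT mice 1 and 2 were above all others, and WT mice 3 and 4 were within the RC/RC range. Its log2 difference was -0.34 (SE 0.15, adjusted p = 0.169) for RC/RC against WT and -0.44 (SE 0.16, adjusted p = 0.158) for RC/RC:Casp1KO against WT.

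Counted together, 1 of the 10 genes was called between RC/RC and WT kidneys, where 12.9% of 15243 genes were. DESeq2 called 2, against 16.5% of genes, and 5 had an unadjusted p under 0.05 in edgeR, against 29.2%. Between RC/RC:Casp1KO and RC/RC kidneys 2 of the 10 were called, against 11.6% of 15428 genes. DESeq2 called 4, against 18.1%, and 6 had an unadjusted p under 0.05, against 31.7%. The counts of 1 and 2 lie near the shares for all genes, so the number of calls among the 10 genes is not a result about them. None of the 10 was called between RC/RC:Casp1KO and WT kidneys, where edgeR's quasi-likelihood test called 2.03% of 15346 genes. In that comparison DESeq2 also called none, beside 7.72% of genes, and 1 of the 10, Ehd3, had an unadjusted p under 0.05, as did 21.8% of all genes tested. Beside Ehd3, the endothelial genes differed by -0.25 (Emcn) to 0.14 (Tek) there. The median log2 difference of the 9 endothelial genes was 0.34 for RC/RC against WT, beside -0.02 over all genes, and -0.39 for RC/RC:Casp1KO against RC/RC, beside -0.03 over all genes. These medians were 0.20 and -0.24 without RC/RC mouse 2. The 2 comparisons share the RC/RC mice, and in whole kidney RNA a change in the number of endothelial cells cannot be told apart from a change in the RNA of each cell.

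**Figure D3:**
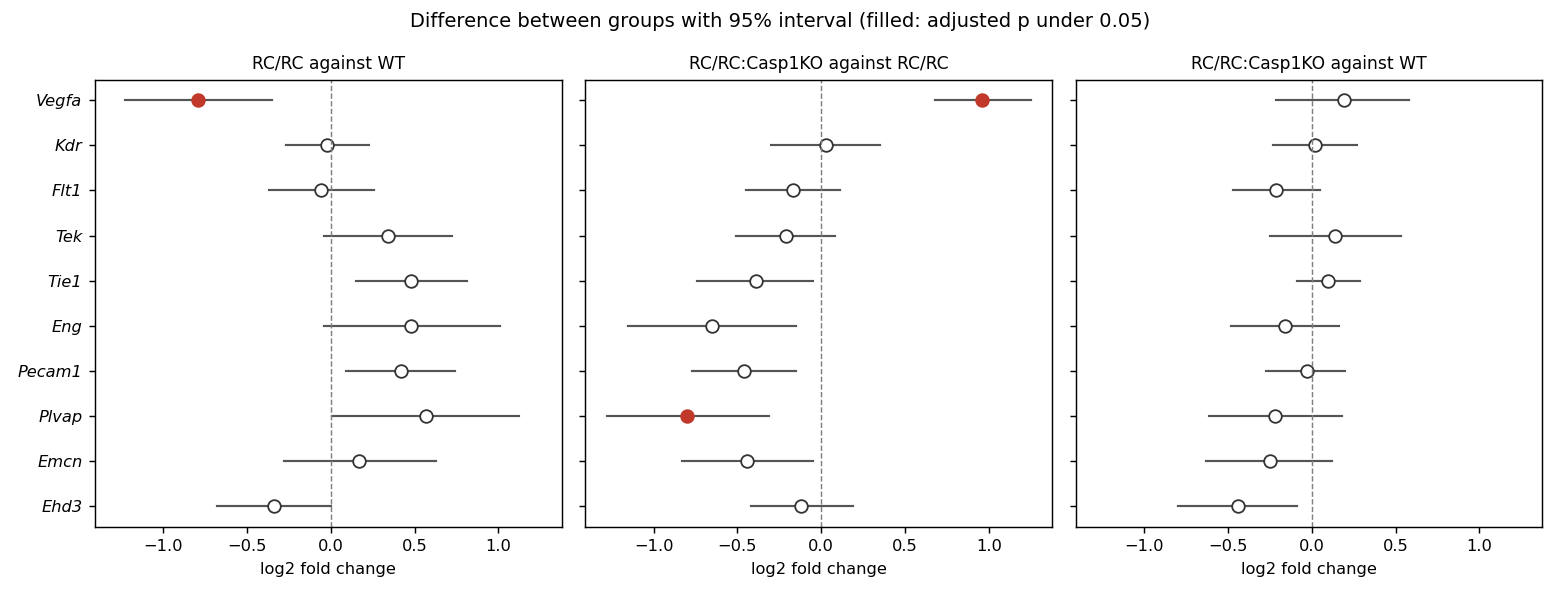
Log2 fold change (horizontal axes) of the 10 genes (rows) in the 3 comparisons (panels), with the 95% interval as a line. Filled circles mark an adjusted p under 0.05 and are found for Vegfa in the first 2 panels and Plvap in the second.

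The mice of a group were not alike. RC/RC mouse 2 had the highest level of all 12 mice for 6 of the 9 endothelial genes and the highest of its group for 8. RC/RC:Casp1KO mouse 4 had the lowest level of its group for 8 of the 9. WT mice 1 and 2 both lay above WT mice 3 and 4 for 8 of the 9 endothelial genes, and below them for Vegfa. Each group held both sexes and sex was not inferred from the counts, so the part of sex in these splits was not tested. WT mice 1 and 2 also differed from WT mice 3 and 4 in the balance of short and long transcripts described below. RC/RC:Casp1KO mouse 4 had the lowest balance of its group. The part of that balance in the splits was not tested either.

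**Figure D4:**
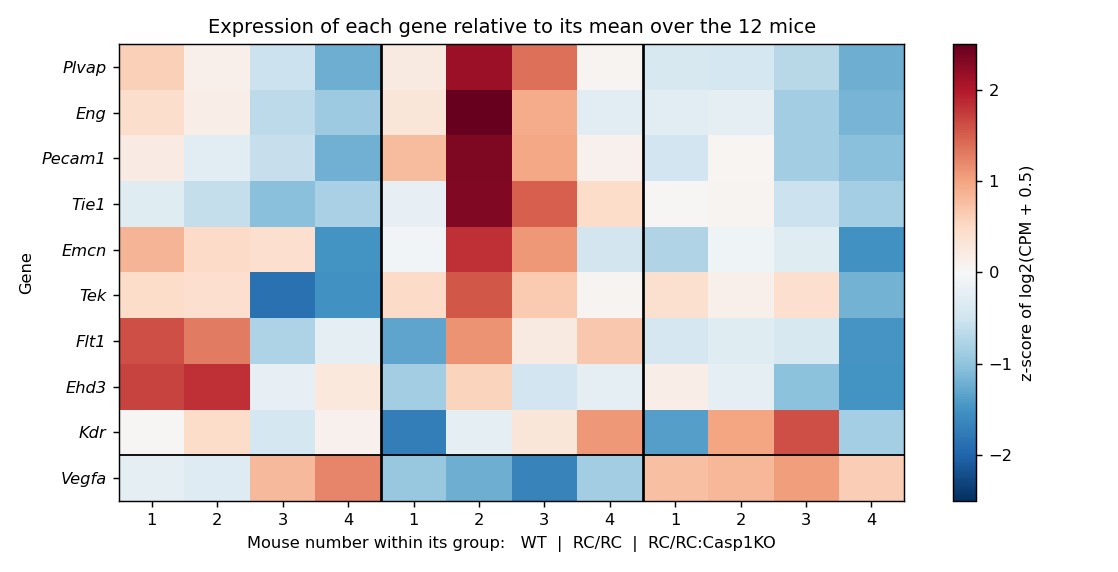
Level of each gene (rows) in each mouse (columns, by group) as a z-score of log2(CPM + 0.5) over the 12 mice, with red above and blue below the gene's mean. RC/RC mouse 2 is darkest red for 6 endothelial genes, Kdr runs apart from the other endothelial rows, and the Vegfa row is blue in all 4 RC/RC mice.

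The libraries also differed in the balance of short and long transcripts. For each library the median deviation from the mean of 3545 short genes (up to 1967 bp) minus that of 3543 long genes (from 4499 bp) was taken. It was 0.15, 0.07, -0.16 and -0.14 on the log2 scale in WT mice 1 to 4. The values were -0.09, 0.37, 0.47 and 0.12 in the RC/RC mice and -0.18, -0.25, -0.03 and -0.31 in the RC/RC:Casp1KO mice. RC/RC mice 2 and 3, the highest of all 12 mice for Plvap, Eng, Pecam1 and Tie1, also had the highest share of short transcripts. RC/RC mouse 3, with the most extreme balance, had the lowest Vegfa level of all 12 mice. Over the 12 mice, Pearson's r of the Vegfa level with this balance was -0.82, and -0.61 within groups. For the endothelial genes it ran from 0.24 for Kdr to 0.89 for Plvap (0.47 and 0.78 within groups). The part of the library balance in the differences between groups was not tested by these values. With this length trend removed from each library, the difference of RC/RC:Casp1KO from RC/RC kidneys was -0.67 for Plvap and no longer called (adjusted p = 0.0637 in edgeR's quasi-likelihood test). Both Vegfa calls were kept, with log2 fold changes of -0.79 and 0.96 as before. With an exon length of 3451 bp, Vegfa lies between the short and long genes, where this removal can change little. Its calls are therefore no check on the library balance.

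The genes whose levels followed the mean z-score of the 9 endothelial genes most closely over the 12 mice were Cd81, Ly6c1, Fam96b, Ino80e, Bola2, Pkig, Smco4, Slc9a3r2, Rpl26 and Rabac1. Their Pearson's r lay between 0.937 and 0.951, out of 14155 genes compared. Ly6c1 is known from endothelial cells and Rpl26 encodes a ribosomal protein, and the exon lengths of the 10 genes were 657 to 2808 bp. The 5 genes closest to Vegfa were Atg2b, Polr3a, Svopl, Cpsf1 and Mafg (r from 0.974 to 0.982), with exon lengths of 2930 to 10173 bp. The points share depth, length balance and group, and the values describe these 12 libraries only.

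Beside Vegfa, Kdr and Flt1, 7 other VEGF ligands and receptors were measured. All 7 had a positive difference between RC/RC and WT kidneys and a negative one between RC/RC:Casp1KO and RC/RC kidneys, and 1 was called in each comparison, near the shares of all genes (12.9% and 11.6%). In the first it was Nrp2, the neuropilin coreceptor of lymphatic and venous endothelium, at a mean of 37.3 CPM in WT kidneys and 61.8 CPM in RC/RC kidneys (log2 fold change 0.73, SE 0.16, adjusted p = 0.0176). The differences of the 6 that were not called were 0.40 for Flt4 (the VEGF-C receptor), 0.58 for Figf (VEGF-D), 1.64 for Pgf (placental growth factor, under 2 CPM in each group mean), 0.24 for Nrp1, 0.42 for Vegfc and 0.24 for Vegfb. Between RC/RC:Casp1KO and RC/RC kidneys Flt4 fell, from 29.8 to 21.6 CPM (log2 fold change -0.47, SE 0.13, adjusted p = 0.0454). In that comparison the differences that were not called ran from -0.85 for Pgf to -0.15 for Vegfb, with Nrp2 at -0.50, Figf at -0.77, Nrp1 at -0.17 and Vegfc at -0.41. The median of the 7 was 0.42 and -0.47 in the 2 comparisons, which share the RC/RC mice. None of the 7 was called between RC/RC:Casp1KO and WT kidneys by edgeR or DESeq2 (0 at an unadjusted p under 0.05), with differences from -0.18 for Figf to 0.81 for Pgf. Without RC/RC mouse 2 the Nrp2 call was kept and the Flt4 call was lost. Over all fits that left out 1 mouse, from 0 to 2 of the 7 were called in the first comparison and from 0 to 1 in the second. The Nrp2 call was thus not kept in every such fit.

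Among the partners of Tek, Tie1 and Eng, 1 of 10 genes tested was called between RC/RC and WT kidneys and 2 of 9 between RC/RC:Casp1KO and RC/RC kidneys, beside 12.9% and 11.6% of all genes, so these counts are not a result about the group. Id3, a target of BMP and ALK1 signals, stood at 58.1, 116 and 52.7 CPM in WT, RC/RC and RC/RC:Casp1KO kidneys. It was called in both comparisons (log2 fold changes of 1.00, adjusted p = 0.0375, and -1.15, adjusted p = 0.0434, edgeR). Acvrl1, which encodes ALK1, stood at 24.6, 40.6 and 23.3 CPM and was called against RC/RC only (-0.81, SE 0.19, adjusted p = 0.0302), its difference of RC/RC from WT being 0.72 (adjusted p = 0.0550). The Tie2 ligand Angpt1 had differences of -0.44 and -0.06, and its antagonist Angpt2 of 0.54 and -0.51, none of them called. The phosphatase Ptprb (0.21 and -0.07), the receptor Bmpr2 (0.04 and -0.01), Smad6 (0.35 and -0.39), Smad7 (0.19 and -0.44) and Id1 (-0.10 and -0.77) were not called either. Angpt4 was under 1 CPM in each group mean (0.11 for RC/RC against WT), and Gdf2, the ALK1 ligand BMP9 made in liver, was too low to be tested. Leaving out RC/RC mouse 2 removed the Id3 call against WT and left 1 call against RC/RC, that of Acvrl1. Over all fits that left out 1 mouse, from 0 to 3 of these genes were called in each of the 2 comparisons. The alternatives that kept all mice called from 1 to 3 in the first and from 0 to 3 in the second.

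Of 31 transducers of VEGF receptor signals, 9 rose and none fell in RC/RC against WT kidneys, where edgeR's quasi-likelihood test called 9.76% of all genes higher. The 4 with the smallest adjusted p were the phospholipase Pla2g4a (1.10, adjusted p = 0.0133), the kinase Prkcb (1.05, 0.0214), the cyclooxygenase Ptgs2 (1.44, 0.0304) and the sphingosine kinase Sphk1 (0.76, 0.0348). Several of these genes act in cells other than endothelium. Without RC/RC mouse 2, 1 of the 31 was called higher. In RC/RC:Casp1KO against RC/RC kidneys 4 fell and none rose, beside 4.41% of all genes called lower: the heat shock protein Hspb1 (-1.98, adjusted p = 0.0259), Akt1 (-0.49, 0.0287), Cdc42 (-0.39, 0.0459) and Src (-0.33, 0.0470). Without RC/RC mouse 2 edgeR called none of the 31. In this comparison the alternatives that kept all mice called from 1 to 10 of them.

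Of 28 pan-endothelial genes outside the 10, 9 rose and none fell in RC/RC against WT kidneys, where 9.76% of all genes were called higher. Their median was 0.57. In whole kidney RNA the cells that carried these transcripts cannot be told apart, and fibroblast and myeloid markers, given below, also rose. Ecscr, an endothelial surface protein, rose from 3.60 to 9.78 CPM (1.44, adjusted p = 0.00829). The transcription factor Sox18 rose from 14.5 to 38.0 CPM (1.38, adjusted p = 0.0129), the adrenomedullin receptor Calcrl from 23.3 to 43.0 CPM (0.88, adjusted p = 0.00855) and Cd34 from 29.1 to 58.9 CPM (1.02, adjusted p = 0.0133). In RC/RC:Casp1KO against RC/RC kidneys 7 fell and none rose, where 4.41% of all genes were called lower, and the median was -0.54. Among these were Sox18 (-1.21, adjusted p = 0.0199), Mmrn2 (-0.73, 0.0237), Calcrl (-0.76, 0.0237) and its partner Ramp2 (-0.87, 0.0335). Against WT, S1pr1, the sphingosine 1-phosphate receptor, was lower in RC/RC:Casp1KO kidneys (-0.73, adjusted p = 0.0348, edgeR) and was the only one of the 28 called. That count ran from 0 to 2 over fits that left out 1 mouse and from 0 to 3 over the other alternatives. Without RC/RC mouse 2 the counts were 5 higher in the first comparison and 1 lower in the second, with medians of 0.38 and -0.35, and over all fits that left out 1 mouse they ran from 4 to 13 and from 0 to 15. The alternatives that kept all mice called from 8 to 13 in the first comparison and from 1 to 13 in the second.

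The summed level of the 28 genes was 635, 600, 541 and 488 CPM in the WT mice, 740, 1132, 878 and 628 CPM in the RC/RC mice and 604, 650, 536 and 554 CPM in the RC/RC:Casp1KO mice. RC/RC mouse 4 lay within the WT and RC/RC:Casp1KO ranges, and RC/RC mouse 2 was again the highest.

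By vessel type, few genes were called, and the lists are short beside shares of 9.76% called higher and 4.41% called lower among all genes. Of 7 arterial genes 2 rose in RC/RC against WT kidneys, Efnb2 (0.70, adjusted p = 0.00780) and the netrin receptor Unc5b (0.93, 0.00818), and the connexin Gja4 fell in RC/RC:Casp1KO against RC/RC kidneys (-1.10, 0.0258). Neither of 2 venous genes tested, of 3 listed, was called by edgeR or DESeq2 (1 and 0 at an unadjusted p under 0.05), with Nr2f2 at 0.32 and -0.25 and Ephb4 at 0.19 and -0.22. Of the lymphatic genes, 5 tested in the first comparison and 6 in the second, the chemokine Ccl21a rose (1.22, adjusted p = 0.00901) and fell (-0.83, 0.0272) in the same 2 comparisons, and Pdpn fell in the second (-0.65, 0.0403). Pdpn is also expressed by podocytes. The calls of Gja4, Ccl21a and Pdpn against RC/RC were lost without RC/RC mouse 2. Of 5 glomerular endothelial genes only Pi16, which fibroblasts also express, rose (1.8, adjusted p = 0.00521), and the list's median was 0.03. None of these 5 was called by edgeR against RC/RC in the RC/RC:Casp1KO kidneys, where Plat was at -0.37 and Pi16 at -0.90, DESeq2 called 1 and 2 had an unadjusted p under 0.05.

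Of 6 genes of activated endothelium, 2 adhesion molecules rose in RC/RC against WT kidneys, where 9.76% of all genes were called higher. Vcam1 rose from 16.6 to 53.2 CPM (1.68, SE 0.14, adjusted p = 0.000208) and Icam1 from 17.7 to 34.4 CPM (0.96, SE 0.11, adjusted p = 0.000809). Epithelial and immune cells can also express both. Of 6 inhibitors of angiogenesis 4 rose in the same comparison, beside that share, which were the thrombospondins Thbs2 (2.42, adjusted p = 0.00166) and Thbs1 (1.18, 0.00472), Serpinf1 (2.59, 0.00167) and Vash1 (1.30, 0.00609). The cells that carried these transcripts cannot be told apart here, and fibroblast markers rose in the same comparison, with a median of 2.47. Timp3, the most abundant of the 6 and also an inhibitor of matrix proteases, was at 285, 212 and 272 FPKM in WT, RC/RC and RC/RC:Casp1KO kidneys and was not called (-0.52, adjusted p = 0.156). The summed level of the 6 genes, in which Timp3 weighs most, was 1754 ± 222 CPM among WT mice and 1574 ± 164 CPM among RC/RC mice (SD, n = 4). Serpinf1 fell in RC/RC:Casp1KO against RC/RC kidneys (-1.55, 0.0246), a call lost without RC/RC mouse 2. None of the activated endothelium genes was called there by edgeR, beside 4.41% of all genes called lower, with Vcam1 at -0.92 (adjusted p = 0.0950) and Esm1 at -0.20, while DESeq2 called 2 and 3 had an unadjusted p under 0.05. All 4 inhibitor calls and both adhesion calls against WT were kept in number without RC/RC mouse 2.

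**Figure D5:**
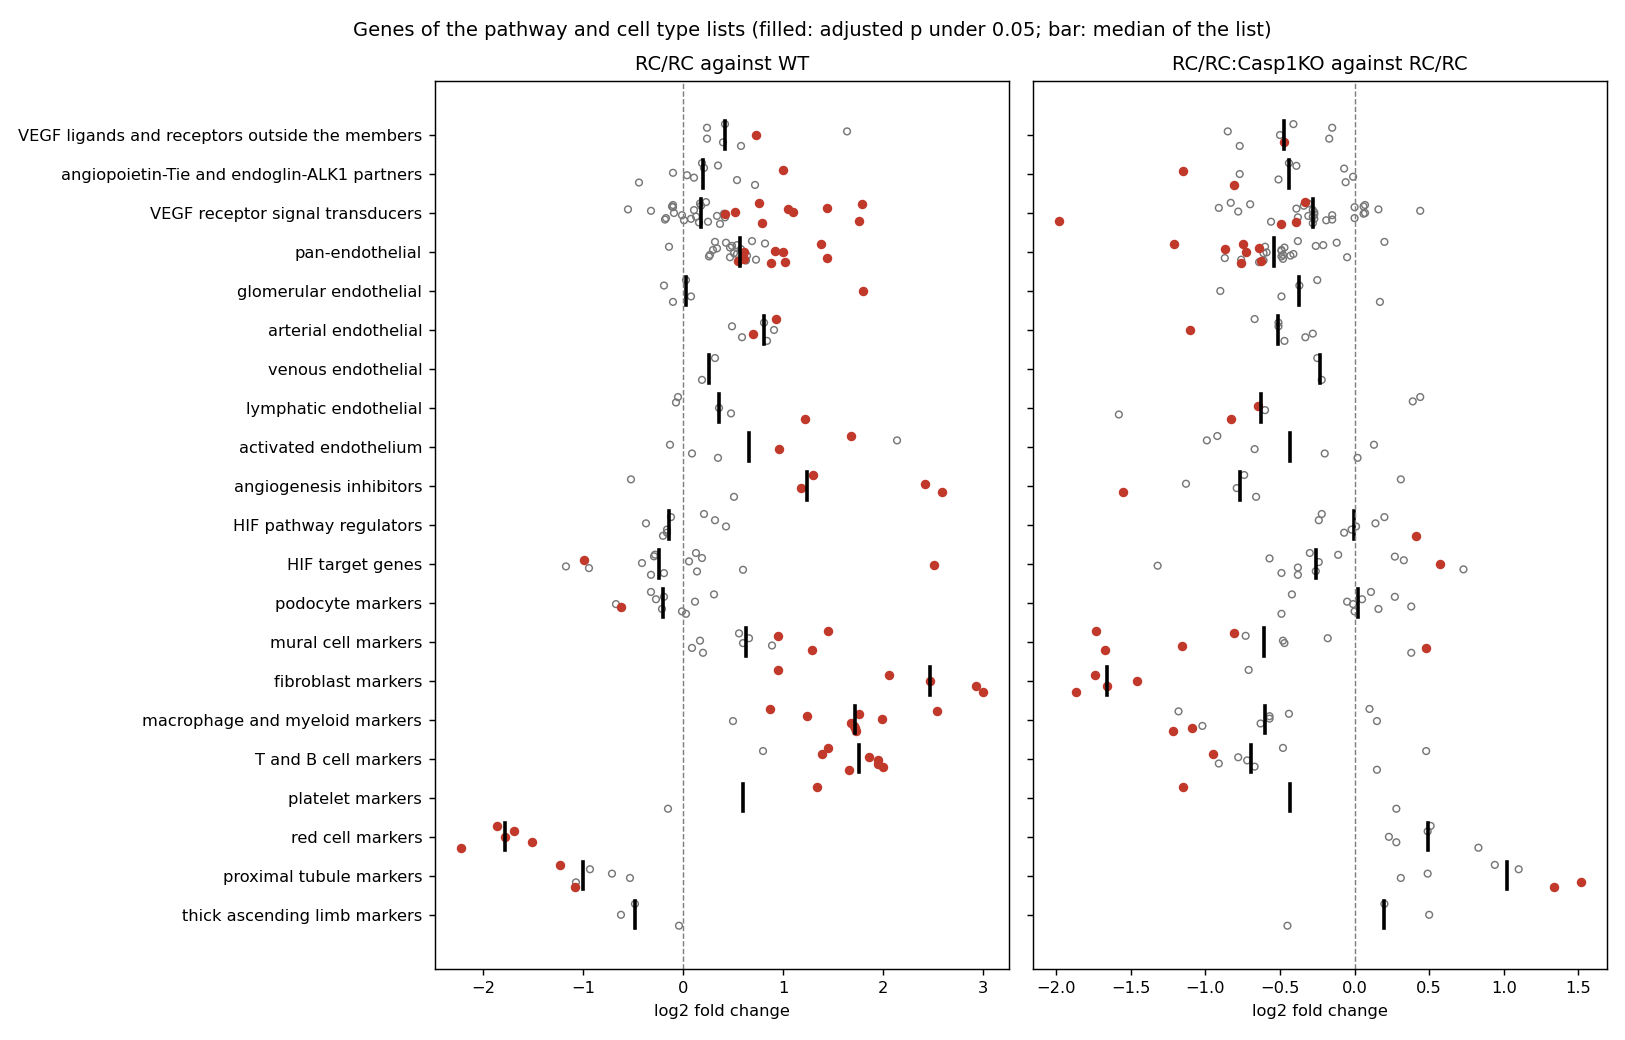
Log2 fold change (horizontal axes) of each tested gene of 21 lists (rows) in RC/RC against WT and RC/RC:Casp1KO against RC/RC kidneys, with filled points for an adjusted p under 0.05 and a bar at the list's median. The pan-endothelial median is 0.57 in the first panel and -0.54 in the second, and the fibroblast medians are 2.47 and -1.66.

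The hypoxia-inducible factor (HIF) pathway is a known activator of Vegfa. Of its 8 regulators and 14 targets listed, 2 genes in all were called in RC/RC against WT and 2 in RC/RC:Casp1KO against RC/RC kidneys, beside 12.9% and 11.6% of all genes, so the counts are not a result about the pathway. None of 8 regulators of the pathway was called in RC/RC against WT kidneys by edgeR or DESeq2 (3 at an unadjusted p under 0.05), with Epas1 at -0.37 (adjusted p = 0.145) and Hif1a at 0.32 (0.142). In RC/RC:Casp1KO against RC/RC kidneys Arnt, the shared HIF partner, rose from 41.8 to 55.9 CPM (0.41, adjusted p = 0.0434). Of 14 HIF targets outside the 10 genes, hexokinase Hk2 rose (2.51, adjusted p = 0.00603) and Ndrg1 fell (-0.99, 0.0179) in RC/RC against WT kidneys. The demethylase gene Kdm3a rose in RC/RC:Casp1KO against RC/RC kidneys (0.57, adjusted p = 0.0443). The calls of Arnt, Ndrg1 and Kdm3a were lost without RC/RC mouse 2. The medians of the targets were -0.24 and -0.26 in the 2 comparisons. They cover genes that went both ways, 6 up and 8 down in the first and 4 up and 9 down in the second. The part of the HIF pathway in the Vegfa differences was not tested.

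Markers of cells that can make VEGF-A were read beside it. The summed level of 6 proximal tubule markers was 7937, 8812, 11500 and 12720 CPM in WT mice 1 to 4, with Slc34a1 the most abundant per length. It was 5216, 3427, 5846 and 8755 CPM in the RC/RC mice and 9801, 9502, 11760 and 10230 CPM in the RC/RC:Casp1KO mice. WT mice 3 and 4 were thus the highest WT mice for both the tubule sum and Vegfa. Beside 12.9% of all genes called in RC/RC against WT kidneys and 11.6% in RC/RC:Casp1KO against RC/RC kidneys, 2 of these 6 markers were called in each. The endocytic receptor Cubn (-1.08, adjusted p = 0.0319) and the glucose transporter Slc5a2 (-1.23, 0.0199) fell in RC/RC against WT kidneys, and Lrp2 (1.52, 0.0144) and Cubn (1.34, 0.0146) rose in RC/RC:Casp1KO against RC/RC kidneys. These counts became 1 lower and 2 higher without RC/RC mouse 2. Over all fits that left out 1 mouse, from 0 to 3 were called in the first comparison and from 2 to 4 in the second. Of 10 podocyte markers, Nphs1, the nephrin gene, fell in RC/RC against WT kidneys (-0.62, adjusted p = 0.0372), a call lost with the length trend removed, with library size alone and in 6 of 8 fits that left out 1 mouse, and none was called against RC/RC in RC/RC:Casp1KO kidneys by edgeR or DESeq2, with Podxl at 0.05, Synpo at -0.42 and 2 at an unadjusted p under 0.05. None of 3 thick ascending limb markers was called by either tool in any comparison (1 each at an unadjusted p under 0.05), with Umod at -0.48 and Slc12a1 at -0.62 in RC/RC against WT kidneys. The part of proximal tubule content in the Vegfa differences was not tested.

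Markers of cells around vessels were read in the same way. The sum of 10 mural cell markers was 330 to 365 CPM in WT mice, 482, 979, 573 and 443 CPM in the RC/RC mice and 327 to 385 CPM in RC/RC:Casp1KO mice, with Tagln the most abundant per length. Of the 10, 3 rose in RC/RC against WT kidneys, where 9.76% of all genes did, namely Pdgfrb (0.95, adjusted p = 0.0132), Tagln (1.45, 0.0163) and Acta2 (1.29, 0.0302). In RC/RC:Casp1KO against RC/RC kidneys 4 fell, where 4.41% of all genes did, among them Tagln (-1.73, 0.0146), Acta2 (-1.67, 0.0158) and Des (-1.16, 0.0249), and the pericyte gene Cspg4 rose (0.48, 0.0281). With RC/RC mouse 2 left out, the mural counts were 3 higher in the first comparison and 3 lower and 1 higher in the second. Over all fits that left out 1 mouse, from 1 to 7 were called in the second, the fewest without RC/RC:Casp1KO mouse 2. All 5 fibroblast markers rose in RC/RC against WT kidneys, with Col1a1 at 3.00 (0.000806), Col3a1 at 2.93 (0.000844), Dcn at 2.47 (0.000394) and Lum at 2.06 (0.0202), and these 4 fell in RC/RC:Casp1KO against RC/RC kidneys (Dcn -1.46, 0.00880). The fibroblast counts fell to 3 higher and 1 lower without RC/RC mouse 2, in place of 5 and 4. In the second comparison the alternatives that kept all mice called from 1 to 5 of them. The fibroblast sum was 117 to 168 CPM in WT mice, 544 to 1307 CPM among RC/RC mice and 198 to 457 CPM in RC/RC:Casp1KO mice, highest in RC/RC mouse 2, and Dcn was higher in RC/RC:Casp1KO than in WT kidneys (1.02, adjusted p = 0.00799).

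Beside 9.76% of all genes called higher in the first comparison and 4.41% called lower in the second, immune markers were counted. Of 10 macrophage and myeloid markers 9 rose in RC/RC against WT kidneys, led by Lyz2 (2.54, adjusted p = 0.000358) with C1qb (1.72), C1qa (1.73) and Itgam (1.76), and 2 fell in RC/RC:Casp1KO against RC/RC kidneys, C1qb (-1.09, 0.0465) and C1qa (-1.22, 0.0492). When RC/RC mouse 2 was left out the first count was again 9 and the second was 0, and the second ran from 0 to 8 over the fits that left out 1 mouse and was 0 with the length trend removed. The sum of the macrophage and myeloid markers was 171 to 222 CPM in WT mice, 437 to 601 CPM among RC/RC mice and 233 to 546 CPM in RC/RC:Casp1KO mice. Of 8 T and B cell markers 7 rose in RC/RC against WT kidneys, with Cd79a at 1.86, Cd3e at 1.95, Cd3d at 2.00 and Cd4 at 1.95. All of these were below 5 CPM in each group mean, and Cd79b fell in RC/RC:Casp1KO against RC/RC kidneys (-0.95, adjusted p = 0.0456). Leaving RC/RC mouse 2 out gave 3 higher and 0 lower, and the Cd79b call was also lost with the length trend removed. Of 5 platelet genes 2 were expressed highly enough to be tested. One of them, Pf4, at 0.800, 2.03 and 0.918 CPM in the 3 groups, rose (1.34, adjusted p = 0.0212) and fell (-1.15, 0.0244) in the same comparisons, and both calls were lost without RC/RC mouse 2.

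Red cell transcripts ran the other way. All 5 were lower in RC/RC than in WT kidneys, where 12.9% of all genes were called, including Alas2 (-2.22, adjusted p = 0.00111), Hbb-bs (-1.69, 0.00325), Hbb-bt (-1.86, 0.00572) and Hba-a1 (-1.51, 0.00979). None was called by edgeR between RC/RC:Casp1KO and RC/RC kidneys, where 11.6% of all genes were, with Hbb-bs at 0.49 and Hba-a1 at 0.28 and with 1 called by DESeq2 and 1 at an unadjusted p under 0.05. Against WT, where 2.03% of all genes were called, 4 were lower in RC/RC:Casp1KO kidneys. That number was 1 without any one of WT mice 1 and 2 and RC/RC:Casp1KO mice 1, 2 and 4, and 2 with a filter of at least 10 counts in every mouse. Their sum was 900, 822, 649 and 477 CPM in WT mice, 126, 269, 261 and 259 CPM among RC/RC mice and 348, 258, 395 and 217 CPM in RC/RC:Casp1KO mice. The platelet genes Ppbp, Gp9 and Gp1bb had at most 3 counts in at least 1 mouse. The part of mural, fibroblast, immune and blood cell content in the endothelial differences was not tested.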

How the data were processed

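Kidney poly(A) RNA of 12 mice was sequenced through a commercial service. The submitters' processing notes name STAR, CASAVA 1.8 and mm10, and the counting tool, annotation and strand setting are not given in the sources used here, so reads of overlapping genes on opposite strands cannot be told apart. The authors deposited 1 table for the series, of which the read counts per gene and mouse, not normalized, were used. FPKM was computed here as the count divided by gene length and library total, and the FPKM columns of the table were not used. Reads counted per library ranged from 18019819 to 24869454. The authors' fold changes, p-values and group means in the table were not used. Column names give group and mouse number, so mice were assigned to groups and not to single samples, and the column names do not give sex, which was not inferred from expression. P-values measure the spread between mice.

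Each pair of groups (8 mice) was tested with edgeR 4.0.16 (R 4.3.3), using TMM factors, filterByExpr, the quasi-likelihood test and Benjamini-Hochberg adjustment. A gene with an adjusted p under 0.05 was called. CPM values use TMM factors of all 12 libraries, and 95% intervals come from the log2 fold change and its SE. Fits were also run on simulated counts. These held no length imbalance between libraries and no sexes, so that run says nothing about either.

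The members and the 21 other gene lists named in the text were chosen with earlier results of these data known. All 194 list genes were matched by symbol or older symbol. Named genes are Casp1, Pkd1, the 10 genes, all other VEGF ligands and receptors and angiopoietin or endoglin partners, up to 4 called genes with the smallest adjusted p of each other list (where none was called, the 2 highest in mean CPM), the most abundant marker of other cell types, and the 10 and 5 genes most correlated over 12 mice with the endothelial mean z-score and with Vegfa. Promoters are from RefSeq (GRCm38.p6). Alternatives were DESeq2 1.42.0, RLE factors, library size alone, at least 1 count, at least 10 counts in every mouse, all 12 mice in one fit, mitochondrial genes left out, each mouse left out in turn and, added after seeing the data, removal of the gene length trend (loess, span 0.5).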

Additional observations from a re-analysis of the deposited data

Results flagged for a closer look

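In 33 groups of 4 mice tested for a sample standing apart from the others by Dixon's criterion, 2 were picked out, and chance picks out about 1 in 20. The Flt1 level of RC/RC:Casp1KO mouse 4, 83.0 CPM, lay below the other mice of its group, at 94.7 to 96.2 CPM. The Casp1 level of WT mouse 1, 2.05 CPM, lay above the other WT mice, at 1.29 to 1.41 CPM.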

How the results depend on the processing

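No paired analysis was possible because the count columns carry no replicate numbers. No called direction among the 10 genes reversed under the alternatives run. The Vegfa difference of RC/RC:Casp1KO from RC/RC mice was called under every one of them. That of RC/RC from WT mice was lost with library size alone (-0.69, adjusted p = 0.0501). The Plvap call was lost with library size alone, with mitochondrial genes left out and with the length trend removed, which left 1 called gene of 10 in place of 2 in each case. DESeq2 called 2 of the 10 in RC/RC against WT and 4 in RC/RC:Casp1KO against RC/RC. The fit of all 12 mice called 2 and 3 in the same comparisons, with Pecam1 among the 3 (edgeR, adjusted p = 0.0459).

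Over all genes, DESeq2 called 3018 in place of 1971, 3182 in place of 1797 and 1390 in place of 311 in the 3 comparisons. Library size alone gave 993 in RC/RC:Casp1KO against RC/RC, and at least 10 counts in every mouse gave 167 in RC/RC:Casp1KO against WT. The cause of these differences was not tested. Leaving out 1 mouse gave 1162 to 2440 called genes and 0 to 2 of the 10 in RC/RC against WT, 438 to 2789 and 1 to 4 in RC/RC:Casp1KO against RC/RC, and 108 to 547 and 0 to 0 in RC/RC:Casp1KO against WT. In RC/RC:Casp1KO against WT, library size alone moved the median of all genes from 0.01 to 0.14.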
